A study of Mus musculus with 24 samples.

Results

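The genes described here are the histone genes and histone variants of the mouse preimplantation embryo. They were taken by symbol from the authors' table of TPM values (a level corrected for gene length and scaled to the same total in every embryo). The symbols were those that begin with H1f and a digit, H2ac, H2ax, H2az, H2bc, H2bu, H3c, H3f, H4c, H4f or Macroh2a, plus Cenpa. The rule took 53 of the 15625 genes in that table. Of these, 41 were replication-dependent genes, with 5 for H1, 10 for H2A, 9 for H2B, 9 for H3 and 8 for H4. Another 9 were variant genes with polyadenylated messages (H1f0, H2ax, H2az1, H2az2, H3f3a, H3f3b, Macroh2a1, Macroh2a2 and Cenpa), and 3 were germ-line genes (H1f8, H2ac1 and H2bc1). A further 18 genes of the same naming pattern stood only in the larger count table, where their total counts over all embryos ran from 0 to 308, and they were not members.

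Single ICR mouse embryos made by in vitro fertilization were sequenced with Smart-seq2, in which an oligo(dT) primer copies messages that carry a poly(A) tail. The 12 intact control embryos were 4 embryos at the 8-cell stage, 5 morulae and 3 blastocysts. The 12 split embryos came from late two-cell embryos treated with a biopsy medium and parted by micromanipulation, after which each blastomere grew alone in a modified sodium hyaluronate gel. They were 6 morulae and 6 blastocysts, and each stage held 3 pairs of sisters from one two-cell embryo. Culture was at 37 °C in 5% O2 and 6% CO2. The labels did not say whether the intact embryos also grew in gel, so separation and gel culture cannot be told apart. They named no litter or culture batch, so p-values measure only the spread between these embryos. Sister embryos share an origin and were joined into 1 replicate per pair, which left 18 replicates for every test.

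A histone octamer of H2A, H2B, H3 and H4 packs DNA into nucleosomes, and the linker histone H1 binds between them. Replication-dependent histone genes are expressed in S phase, and their messages normally end in a conserved stem-loop bound by SLBP in place of a poly(A) tail. Variant genes give polyadenylated messages, and their proteins replace canonical histones at particular places. These are active chromatin for the replacement H3 variant, promoters for H2A.Z, silent chromatin for macroH2A and centromeres for CENP-A. H2A.X is the substrate of DNA damage signalling. The early mouse embryo begins with maternal histone stores, among them the oocyte linker histone H1f8, and passes to embryonic supply during cleavage.

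Because the libraries were primed on poly(A), the 3′ ends bear on what these data can hold. The stem-loops below are those of the most abundant replication-dependent members that carry one in their annotated transcript, and of H2ax, the only variant that does. Capitals mark the 16-base stem-loop, with 5 bases on each side in lower case, 5′ to 3′ on the gene's strand. Positions are those of the GRCm38 reference, which was used for sequence only.
H4c4, chr13:23581945-23581970, plus strand: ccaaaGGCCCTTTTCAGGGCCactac
H2ac8, chr13:23570663-23570688, minus strand: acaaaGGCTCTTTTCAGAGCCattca
H2ac11, chr13:22042478-22042503, minus strand: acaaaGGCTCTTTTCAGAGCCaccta
H2ac20, chr3:96220413-96220438, minus strand: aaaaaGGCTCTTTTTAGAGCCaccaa
H4c9, chr13:22040961-22040986, minus strand: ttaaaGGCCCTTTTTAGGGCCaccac
H2ax, chr9:44335235-44335260, plus strand: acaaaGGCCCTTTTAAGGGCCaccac
The H2A genes shared the outer stem GGCTCT and the H4 genes and H2ax the outer stem GGCCCT. A stem-loop of this form stood in the annotated transcripts of 31 of the 41 replication-dependent members (75.6%), in 1 of the 9 variants and in none of the 3 germ-line genes. Over all 21866 protein-coding genes of the annotation, 62 held one (0.284%). A stem-loop could be found only where the annotated transcript runs that far. Some short ones, such as those of H4c12 and H3c10, may not.

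The other kind of end is the poly(A) signal. The stretches below are 30 bases from the last 40 of the annotated transcript of 2 variants, of H2ax and of 2 replication-dependent members, with the AATAAA or ATTAAA hexamer in capitals.
H3f3a, chr1:180800832-180800861, minus strand: tgaaaaatAATAAAagtaccaatagaagaa
H1f0, chr15:79030475-79030504, plus strand: aactttaaAATAAAactggaaaggaaaaaa
H2ax, chr9:44336043-44336072, plus strand: ATTAAAggatcgtttggttttgttttttta
H2ac8, chr13:23570517-23570546, minus strand: ccAATAAAtgggtcaatttttttcagattc
H4c9, chr13:22040636-22040665, minus strand: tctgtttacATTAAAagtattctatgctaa
The hexamer stood in that place in 7 of the 9 variants and in 9 of the 41 replication-dependent members. Of all 21866 protein-coding genes 16641 held it there, so the variants were near the share of all genes. H3f3b and Macroh2a1 were the variants without it. Some replication-dependent transcripts were annotated well past the stem-loop: by 770 bases in H4c4, by 330 in H4c9 and by 151 in H2ac8, against 57 in H2ac20 and 23 in H2ac11. H2ax was annotated 822 bases past its stem-loop, so its annotation holds both kinds of end. No stem-loop was found in the annotated transcripts of H1f5 and H2bc4. Where an annotated transcript ends early, a missing stem-loop says nothing about the gene itself. In mean TPM, the median member had 1.4 TPM among the 19 annotated more than 100 bases past the stem-loop, 3.95 TPM among the 12 with 100 bases or fewer and 2.76 TPM among the 10 with none. In read counts scaled by library size (CPM), which are not corrected for length, the same medians were 0.762, 0.769 and 0.441 CPM.

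Most replication-dependent members sat in the large cluster on chromosome 13 (36 of 41), with 3 on chromosome 3 and 1 each on chromosomes 6 and 11. Promoters, taken from 250 bases before to 50 bases after the start in RefSeq for the GRCm38.p6 assembly, were found for 38 of the 41. On either strand, 34 of the 38 held CCAAT (89.5%, against 37.4% of all 32851 promoters) and 23 held TATAAA (60.5%, against 13.6%). The octamer ATTTGCAT stood in 10 of the 38 (26.3%, against 1.74% of all), namely in 5 of 8 H2B promoters and 5 of 10 H2A promoters. Promoters of some neighbouring genes overlap, so some matches were counted in both. H2ac8 and H2bc8 hold the same octamer, as do H2ac12 and H2bc12. A match describes the letters and is not a binding site.

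Histone genes are near copies of one another, which bears on any count of reads. An exact 100-base stretch shared with another annotated gene occurred in 37 of the 41 replication-dependent members, 5 of the 9 variants and 1 of the 3 germ-line genes. Of the members described most below, H4c4 and H1f5 shared none of their transcript, H2ac8 shared 30.7%, H2bc4 25.4% and H2ac11 76.2%. How the authors counted reads that match several genes is not given in the sources used here, nor is a strand setting. Levels of members with shared stretches, H2az1 among them at 29.7%, are uncertain to that extent, and 2 replication-dependent genes (H2bc6 and H2bu2), both macroH2A genes and 2 germ-line genes overlap another gene.

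The deposited counts summed to between 11316911 and 38514899 reads per embryo, highest in the 8-cell embryos. Mitochondrial genes held 2.7% to 5.61% of the reads in control embryos, 1.81% to 3.19% in split morulae and 0.841% to 2.34% in split blastocysts. They therefore moved with the split groups, and their part in the results was not tested. Each embryo marker had a count in every group, except for Zscan4c, which was at 0 in control morulae and in both blastocyst groups. Within groups, Cdx2 was at 0 in 3 of 4 8-cell embryos and in both sisters of split morula pair 3. Summed marker levels were at most 2.05 CPM for cumulus and granulosa cells, at most 5.8 CPM for sperm and at most 107 CPM for blood, the last in 1 split morula. Oocyte markers summed to 13 to 72.6 CPM in 8-cell embryos and to at most 22.6 CPM in the other groups. Both sisters of split morula pair 3 stood apart, with a median correlation to their group of 0.819 against 0.856 to 0.873 for the other split morulae and with Obox6 at 1859 and 2206 CPM, inside the 8-cell range of 1696 to 2797 CPM. Blastomere 1 of split blastocyst pair 2 also stood apart, at 0.899 against 0.922 to 0.944.

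Variant messages made up nearly all of the histone RNA in these libraries. The 9 variants together took between 0.603% and 1.19% of the counted reads of an embryo. The 41 replication-dependent genes together took between 0.00272% and 0.0372%. Per length, in summed TPM, replication-dependent genes were 2.96% to 13.1% of all histone RNA in 8-cell embryos, 2.05% to 7.67% in morulae, 1.48% to 3.77% in split morulae, 8.4% to 13.2% in blastocysts and 4.65% to 11% in split blastocysts. The lowest values were thus in morulae, split ones in particular, and both blastocyst groups and the 8-cell embryos reached higher. The 8-cell embryos overlapped both morula groups, and split blastocysts overlapped control morulae. These shares say what poly(A) priming captured and not how much histone message a cell held, and fewer cells and less RNA per cell cannot be told apart in whole embryos.

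**Figure D1:**
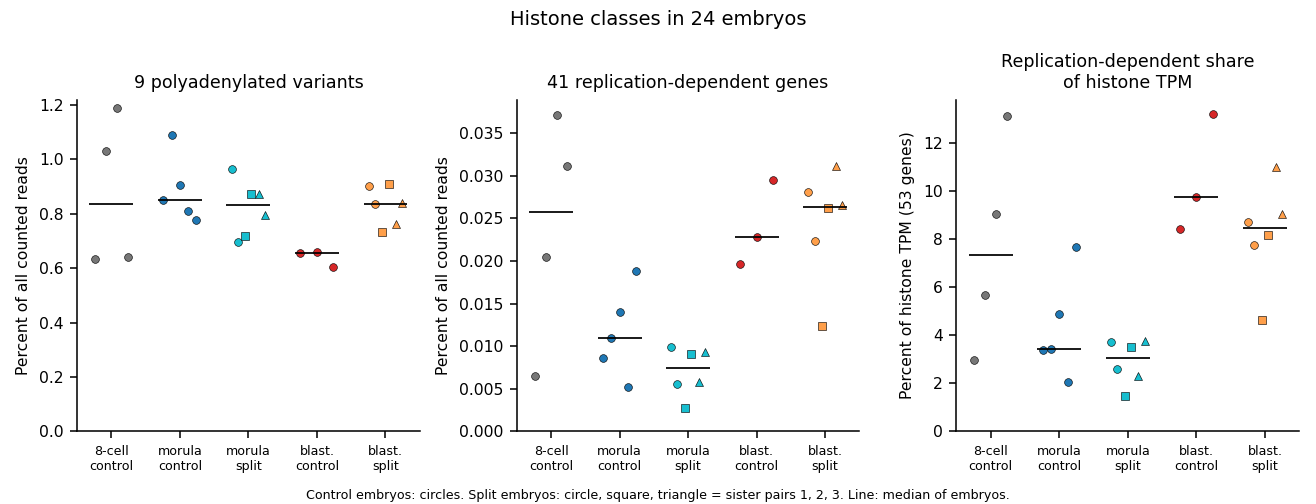
Percent of all counted reads from the variant genes and from the replication-dependent genes, and the replication-dependent percent of summed histone TPM, each on a linear axis from 0, with a point for each embryo (circles for controls; circles, squares and triangles for sister pairs 1, 2 and 3 of split embryos) and a line at the group's median. Variants lie between 0.603% and 1.19% of reads, and replication-dependent genes between 0.00272% and 0.0372%, with medians lowest in split morulae.

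In mean TPM over the 24 embryos, the order of the members was led by H3f3b at 4020 TPM, which encodes the replacement H3 variant, and by H2az1 at 2413 TPM. H2az2 (530 TPM), H3f3a (293 TPM, a second gene for the same H3 variant), H2ax (291 TPM) and Cenpa (165 TPM) followed. H1f5, a linker histone gene, was the highest replication-dependent member at 120 TPM, ahead of H4c4 at 83.8 TPM and H2ac8 at 78.9 TPM. That order came largely from the 8-cell embryos, where H1f5 averaged 318 TPM: in split morulae H2ac11 led at 71.7 TPM against 32.2 TPM for H1f5, and in split blastocysts H2ac8 led at 163 TPM, ahead of H2ac11 at 124 TPM and H1f5 at 98.5 TPM. Of the 41 replication-dependent members, 34 had a mean below 10 TPM. H3f3b alone made up 84% to 92.9% of all H3 TPM in every embryo. The replication-dependent H3 genes summed to a median of 0.707 TPM in split morulae, 7.24 TPM in morulae, 12.4 TPM in 8-cell embryos, 13.2 TPM in blastocysts and 22.3 TPM in split blastocysts, the lowest of the 5 families in each group except the 8-cell embryos, where H2B was lower at 10.9 TPM.

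From the 8-cell stage to the morula macroH2A, CENP-A and a replacement linker histone rose, while one gene each for the replacement H3 variant and H2A.Z fell. Levels of single genes are given from here as CPM scaled by TMM, and tests are edgeR's quasi-likelihood test with Benjamini-Hochberg adjustment over all 15875 genes tested, called at an adjusted p below 0.05. All 53 members passed the filter on low counts. Between the 8-cell stage and the morula 5 of the 53 rose and 4 fell, beside 14.3% of all genes that rose and 10.7% that fell. Among variants, 4 of 9 rose (Macroh2a1, Macroh2a2, Cenpa and H1f0) and 2 fell (H3f3a and H2az2). Among replication-dependent genes, 1 of 41 rose (H2bc4) and 2 fell (H4c4 and H1f5).

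Macroh2a1 encodes the main macroH2A, an H2A variant with a large extra domain found on silent chromatin. Its level was 20.3, 6.7, 4.79 and 5.09 CPM in the 8-cell embryos and 332, 328, 315, 339 and 180 CPM in the morulae. Every morula lay far above every 8-cell embryo, and the log2 fold change was 5.08 ± 0.59 (SE), or 33.7-fold, with an edgeR adjusted p of 8.46e-06. Macroh2a2, its paralog, had no count in any of the 4 8-cell embryos and 14, 1, 28, 0 and 0 counts in the morulae. Morulae averaged 0.602 CPM, which is 6.15 times a floor of 3 counts at the median depth of an 8-cell embryo. That floor was 0.0978 CPM, not scaled by TMM. The rise had an edgeR adjusted p of 0.0469, a call lost in 11 of 18 other settings, where the adjusted p reached 0.403. Floors cover counting error only, since the reads carry no molecular identifiers.

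Cenpa, the centromeric H3 variant, stood at 331, 85, 149 and 188 CPM in the 8-cell embryos and at 545, 611, 438, 822 and 433 CPM in the morulae. The groups did not overlap, and the log2 fold change was 1.66 ± 0.33 (SE; edgeR adjusted p = 0.000891). H1f0, a replacement linker histone, went from 23.4, 48.6, 42.5 and 12.4 CPM to 79.3, 77, 75.4, 75.7 and 106 CPM. All 5 morulae were above all 4 8-cell embryos, and H1f0 rose by 1.46 ± 0.34 (SE) on the log2 scale (edgeR adjusted p = 0.00312).

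H3f3a fell from 670, 769, 778 and 754 CPM in 8-cell embryos to 389, 547, 354, 387 and 521 CPM in morulae, without overlap. The log2 fold change was -0.68 ± 0.17 (SE; edgeR adjusted p = 0.00507). H3f3b, which gives the same protein, had a log2 difference of -0.12 ± 0.20 (SE; edgeR adjusted p = 0.729), with 8-cell embryos at 4616, 8265, 10048 and 4469 CPM and morulae at 5783, 7950, 6290, 4762 and 5190 CPM. The morulae lay inside the wide 8-cell range. H2az2 fell from 494, 682, 727 and 535 CPM to 283, 449, 347, 356 and 407 CPM (log2 fold change -0.65 ± 0.17, SE; edgeR adjusted p = 0.00632), again without overlap. H2az1 stood at 1163, 1677, 1921 and 1069 CPM and at 1673, 2106, 1699, 2070 and 1576 CPM, with a log2 difference of 0.40 ± 0.16 (SE) that missed the threshold (edgeR adjusted p = 0.0746). In TPM the ratio of H2az1 to H2az2, the 2 genes for H2A.Z, was 1.84 to 2.43 in 8-cell embryos and 3.56 to 5.43 in morulae. In split blastocysts it was 5.69 to 8.8, against 3.67 to 4.47 in control blastocysts.

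**Figure D2:**
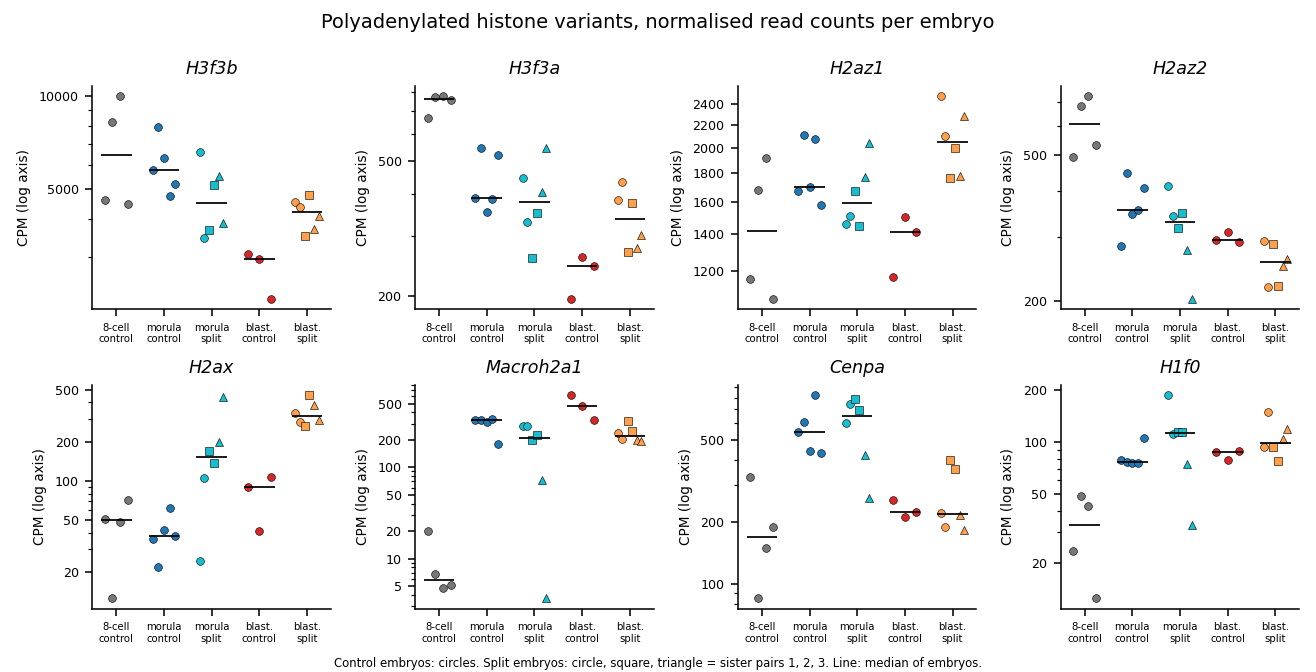
Level of 8 variant genes (CPM, log axis) in every embryo by group, with circles for controls, circles, squares and triangles for sister pairs 1, 2 and 3 of split embryos, and a line at the group's median. Macroh2a1 separates 8-cell embryos, at 4.79 to 20.3 CPM, from control morulae, at 180 to 339 CPM, and H2ax is higher in split blastocysts, at 262 to 455 CPM, than in control blastocysts, at 41.4 to 108 CPM.

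The replication-dependent reads of 8-cell embryos came mostly from a pair of genes. H1f5 and H4c4 together gave 75% to 82.9% of the replication-dependent counts of an 8-cell embryo, 39.4% to 57.4% in morulae and 36.9% to 41.5% in blastocysts. H4c4, an H4 gene, fell from 38.2, 94.7, 138 and 102 CPM to 26.5, 36.4, 30.8, 20.3 and 54.2 CPM (log2 fold change -1.39 ± 0.36, SE; edgeR adjusted p = 0.00697). The lowest 8-cell embryo lay inside the morula range. H1f5 fell from 24.4, 84, 184 and 159 CPM to 9.73, 29.6, 31.9, 6.71 and 63 CPM (log2 fold change -1.91 ± 0.57, SE; edgeR adjusted p = 0.0188). The first 8-cell embryo was again within the morula range, and the call was lost without 8-cell embryo 3 or 4 and in 3 other settings (adjusted p up to 0.0702).

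H2bc4, an H2B gene, moved the other way. It stood at 0.181, 0.299, 2.64 and 0.919 CPM in 8-cell embryos and at 5.3, 5.15, 16, 3.84 and 2.4 CPM in morulae. One 8-cell embryo was above the lowest morula, and H2bc4 rose by 2.78 ± 0.81 (SE) on the log2 scale (edgeR adjusted p = 0.0148). Without morula 3, the highest, the log2 difference was 2.14 with an edgeR adjusted p of 0.0525, and over all alternatives that p ranged from 0.000453 to 0.123. Over the 10 replication-dependent members that averaged 1 or more in log2 CPM, the fitted difference was above 0 in 4 and below 0 in 6, with a median of -0.86, beside a median of 0.09 over all genes.

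Between morula and blastocyst the 2 genes for the replacement H3 variant and Cenpa fell, and no member rose. These 3 of 53 members stand beside 7.46% of all genes that fell and 3.12% that rose. On the log2(TPM + 1) scale the balance over all genes was different, with 2684 higher and 836 lower of 15625 against 496 and 1184 in counts, so directions in this comparison are relative to the scaling. H3f3b was at 3086, 2977 and 2198 CPM in the blastocysts, below every morula (log2 fold change -1.21 ± 0.23, SE; edgeR adjusted p = 0.000937). H3f3a was at 196, 260 and 245 CPM, also below every morula (log2 fold change -1 ± 0.19, SE; edgeR adjusted p = 0.00108). On the log2(TPM + 1) scale these changes were -0.74 and -0.52, also called, and H3f3b was not called by limma-voom (adjusted p = 0.326, the highest of its alternatives).

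Cenpa returned to 256, 212 and 223 CPM in the blastocysts, below the lowest morula at 433 CPM and inside the 8-cell range. It fell by 1.39 on the log2 scale (SE 0.36; edgeR adjusted p = 0.0157), and the call was lost in 8 of 18 alternatives, among them the fits without each of the 3 blastocysts (adjusted p up to 0.0943). Macroh2a1 was at 619, 472 and 327 CPM, overlapping the morulae, with a log2 difference of 0.57 ± 0.52 (SE; edgeR adjusted p = 0.556). H1f0 stood at 88, 79 and 88.7 CPM, within the morula range. H2az2 stood at 294, 310 and 291 CPM, and its log2 difference of -0.39 was not called and turned to 0.09 on the TPM scales.

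All 10 of the more abundant replication-dependent members had a fitted difference above 0 from morula to blastocyst, with a median of 0.81 on the log2 scale beside 0.11 for all genes, and none of the 41 passed the test. The median over all genes was higher on the TPM scales and with limma-voom, so this contrast too is relative to the scaling. The 10 were taken by their mean over all groups, the blastocysts among them. Over all 41 members the fitted difference was above 0 in 33 and below 0 in 8. H2bc4, at 40.1, 24.2 and 20.9 CPM in blastocysts, lay above every morula (log2 difference 2.03 ± 0.78, SE; edgeR adjusted p = 0.104). It was called by DESeq2 and on the TPM scales. The summed replication-dependent share of reads was 0.0197% to 0.0295% in blastocysts and 0.00525% to 0.0188% in morulae, without overlap. The H2B family held a summed 104 to 131 TPM in blastocysts against 14 to 54.4 TPM in morulae and 0.511 to 23.5 TPM in 8-cell embryos, so that its range was separate from both. Much of that sum was H2bc4 itself, at 102, 59 and 56.2 TPM in the blastocysts and 4.84 to 32.2 TPM in the morulae.

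**Figure D3:**
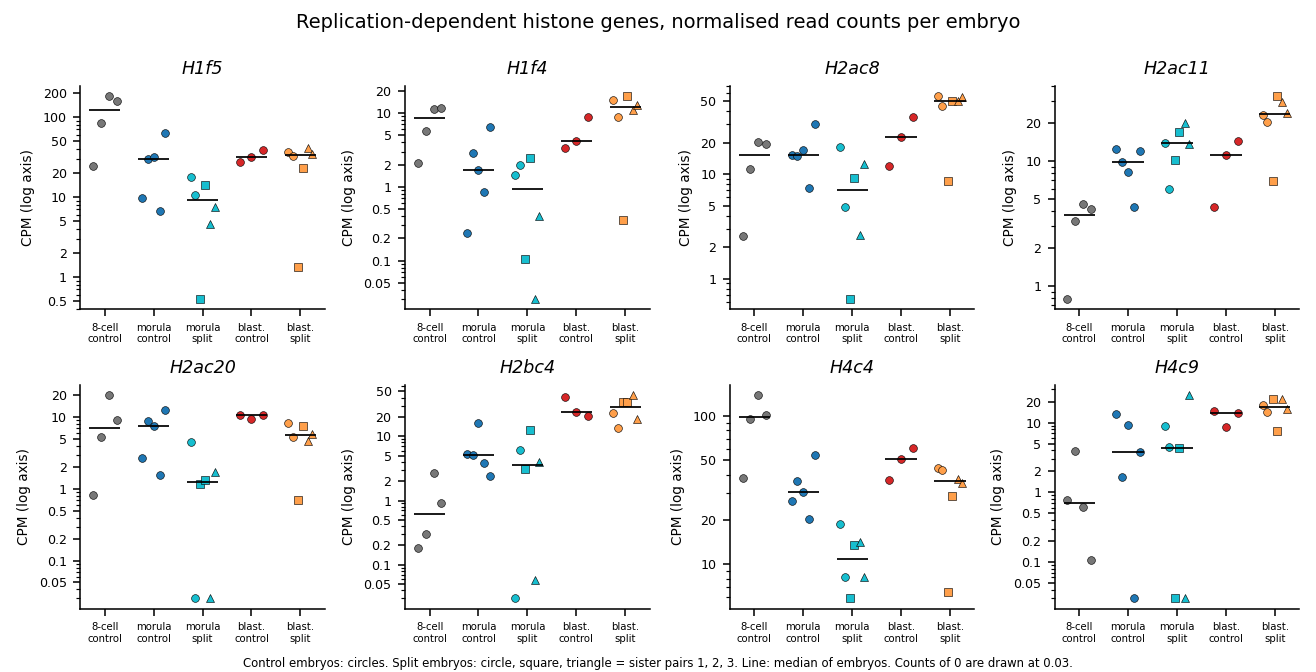
Level of 8 replication-dependent genes (CPM, log axis, counts of 0 drawn at the lower edge) in every embryo by group, with circles for controls, circles, squares and triangles for sister pairs 1, 2 and 3 of split embryos, and a line at the group's median. Medians of H4c4 and H1f5 are highest in 8-cell embryos and those of H2bc4 in both blastocyst groups, and blastomere 1 of split blastocyst pair 2 lies low for H1f5, H4c4 and H2ac8 at 1.33, 6.46 and 8.64 CPM.

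Split morulae held more H2ax message than intact morulae in most embryos, and no member passed the test. Over all genes 0.0693% were called higher and 0.0567% lower in this comparison, 20 genes in all by edgeR. Of the 53 members 9 had an unadjusted p below 0.05, and DESeq2 called 4 (H2ax, H4c4, H1f8 and H2bc14). The shares of all genes by these measures are not given here, so neither count is a result about histones. H2ax encodes H2A.X, which is phosphorylated around DNA breaks. Control morulae stood at 35.9, 22.1, 42.4, 62.5 and 37.6 CPM, and split morulae ran from 24.3 to 436 CPM with a median of 154 CPM. Of the 6 split morulae 5 were above every control morula, and the sixth, blastomere 1 of pair 1, was inside their range. The log2 difference was 2.15 ± 0.47 (SE; edgeR adjusted p = 0.0793), and over the alternatives the adjusted p ran from 0.00174 to 0.411. The highest values were in pair 3, the pair that stood apart, and without it the log2 difference was 1.43 (adjusted p = 0.411), while without pair 1 it was 2.58 (adjusted p = 0.02).

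H4c4 was lower in the split morulae, which ran from 5.88 to 18.8 CPM with a median of 10.9 CPM. All 6 lay below the lowest control morula at 20.3 CPM, with a log2 difference of -1.54 ± 0.42 (SE) that missed the threshold (edgeR adjusted p = 0.125). H1f5 ran from 0.53 to 18 CPM with a median of 9.06 CPM, overlapping the controls (log2 difference -1.60 ± 0.66, SE; edgeR adjusted p = 0.29). At the depth of the shallowest embryo, a median of 17.2 of the 41 replication-dependent members would be seen with at least 1 read in a split morula, against 27.8 in a control morula. The ranges were 12.2 to 22.1 members and 18.2 to 32.3 members, and they overlapped. Macroh2a1 ran from 3.66 to 286 CPM in split morulae, the lowest values being 72.2 and 3.66 CPM in pair 3, and the other 4 lay between 197 and 286 CPM (edgeR adjusted p = 0.588 for the group).

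At the blastocyst stage 1 of the 53 members rose in split embryos, H2ax, and none fell, beside 3.42% of all genes that rose and 1.32% that fell. On the log2(TPM + 1) scale the balance over all genes was 412 higher and 493 lower, against 543 and 209 in counts. H2ax stood at 89.8, 41.4 and 108 CPM in control blastocysts and ran from 262 to 455 CPM with a median of 312 CPM in split blastocysts. Every split blastocyst exceeded every control, in both sisters of each pair. The log2 fold change was 2.15 ± 0.56 (SE), or 4.44-fold (edgeR adjusted p = 0.0306). The size held between 1.85 and 2.43 when any single control or pair was left out, while the adjusted p then rose to between 0.0592 and 0.16, so the call needed all of them. The call was lost in 9 of 17 alternatives in all, among them no filter on low counts and the log2(TPM + 1) and log2(TPM + 0.1) scales. H2ax was 11.5% to 18.3% of H2A TPM in split blastocysts, 2.45% to 6.35% in control blastocysts, 1.46% to 19.1% in split morulae and 1% to 3% in control morulae. The difference between the split effects at the 2 stages was 0.00 ± 0.73 (SE) for H2ax, with an edgeR adjusted p of 1.

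H2az1, H3f3b and H3f3a also lay higher in the split blastocysts without passing the test, while H2az2 did not. H2az1 stood at 1173, 1504 and 1413 CPM in controls and ran from 1767 to 2481 CPM with a median of 2047 CPM in split blastocysts. The groups did not overlap, and the log2 difference was 0.68 ± 0.20 (SE) with an edgeR adjusted p of 0.0504. H3f3b ran from 3529 to 4793 CPM with a median of 4226 CPM, above all controls (log2 difference 0.68 ± 0.24, SE; edgeR adjusted p = 0.142). H3f3a ran from 270 to 434 CPM with a median of 338 CPM, also above all controls (log2 difference 0.63 ± 0.21, SE; edgeR adjusted p = 0.0965). The fitted values of these 3 genes were 1.55-fold to 1.60-fold higher in split blastocysts. H2az2 ran from 219 to 293 CPM with a median of 256 CPM, against 294, 310 and 291 CPM in controls (log2 difference -0.17 ± 0.20, SE; edgeR adjusted p = 0.865). H3f3b and H3f3a were also those that fell from morula to blastocyst in intact embryos, and the 2 comparisons share the control blastocysts. Macroh2a1 lay the other way, from 195 to 322 CPM with a median of 221 CPM against 327 CPM in the lowest control, without overlap and with a log2 difference of -0.96 ± 0.59 (SE) that was not called (edgeR adjusted p = 0.501). Cenpa and H1f0 overlapped the controls, with ranges of 183 to 397 CPM and 77.8 to 150 CPM.

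None of the 41 replication-dependent members was called by edgeR or DESeq2 between split and control blastocysts, and none had an unadjusted p below 0.05 by edgeR. On the log2(TPM + 1) scale limma called 1, the H3 gene H3c10. The 10 more abundant ones split into 6 above 0 and 4 below 0, with a median log2 difference of 0.23 beside 0 for all genes. H2bc4 ran from 13.2 to 43.7 CPM with a median of 28.5 CPM in split blastocysts, around the controls. H2ac11, an H2A gene with much shared sequence, averaged 23.0 ± 3.63 CPM (SD, n = 3 pairs) against 9.99 ± 5.2 CPM (SD, n = 3), and did not pass (edgeR adjusted p = 0.43).

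From split morula to split blastocyst H2ac8 rose, 1 of the 53 members, and none fell, beside 1.22% of all genes that rose and 2.95% that fell. On the log2(TPM + 1) scale the balance over all genes was 859 higher and 521 lower, against 194 and 468 in counts. H2ac8, an H2A gene, ran from 0.636 to 18.1 CPM with a median of 7.02 CPM in split morulae and from 8.64 to 56.3 CPM with a median of 50 CPM in split blastocysts. Only blastomere 1 of split blastocyst pair 2 lay inside the split morula range. The log2 fold change was 2.44 ± 0.69 (SE; edgeR adjusted p = 0.0464). The call was lost without any single pair, with an adjusted p of 0.0574 to 0.162, and the size stayed between 2.17 and 2.83. Controls gave 15.2, 14.8, 17.1, 7.42 and 30.5 CPM in morulae and 11.9, 22.8 and 35.3 CPM in blastocysts, and the test of the difference between the split effects did not pass (2.07 ± 0.90, SE; edgeR adjusted p = 0.285).

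Of the 53 members 15 had an unadjusted p below 0.05 between split morula and split blastocyst. The share of all genes with such a p is not given here, so this count is not a result about histones. All 10 of the more abundant replication-dependent members had a fitted difference above 0, with a median of 1.61 beside 0.05 for all genes. Over all 41 it was above 0 in 39 and below 0 in 2. H4c4 ran from 6.46 to 44.3 CPM with a median of 36.5 CPM in split blastocysts (log2 difference 1.49 ± 0.45, SE; edgeR adjusted p = 0.0657). H2bc4, at 0 to 12.5 CPM with a median of 3.57 CPM in split morulae, was higher in every split blastocyst (log2 difference 2.68 ± 0.94, SE; edgeR adjusted p = 0.121). Macroh2a2 had no count in any of the 6 split morulae and was counted in all 6 split blastocysts, at 1.95 to 11 CPM with a median of 4.47 CPM. Their mean of 5.59 CPM is 32.2 times the floor at the median depth of a split morula, with an edgeR adjusted p of 0.0983. It was counted in 2 of 3 control blastocysts, at 2.51 and 1.23 CPM.

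The test of whether splitting acted differently at the 2 stages called no member, with 11 of 53 at an unadjusted p below 0.05 by edgeR and none called by DESeq2. How many of all genes had such an unadjusted p is not given here. Over all genes 1.37% were called in the positive direction and 0.265% in the negative one, a balance that on the log2(TPM + 1) scale was 45 against 69 genes. H2az1 and H3f3b had the largest support among the variants named above, with differences of 0.83 ± 0.26 (SE; edgeR adjusted p = 0.131) and 1.01 ± 0.33 (SE; edgeR adjusted p = 0.14). H3f3b was called only where the fit was limited to the groups compared (adjusted p = 0.0346, in a range up to 0.657).

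**Figure D4:**
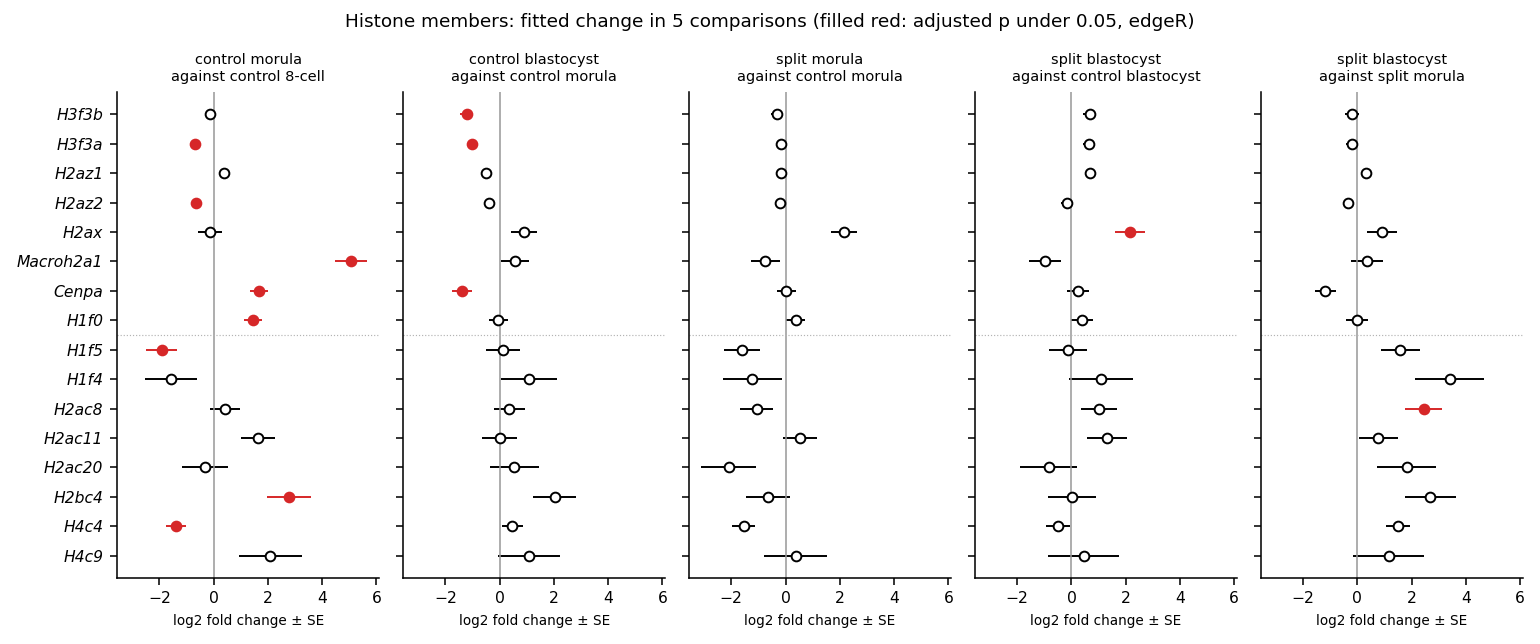
Fitted log2 fold change (points) with its standard error (bars) for 8 variants, above the dotted line, and 8 replication-dependent genes, below it, in 5 comparisons, with filled red points where the edgeR adjusted p is below 0.05. Macroh2a1 has the largest called change shown, 5.08 from 8-cell to morula, and H2ax has 2.15 in split embryos at both stages, called at the blastocyst.

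Sisters from one two-cell embryo gave a view of the spread within a pair. For the abundant variants the higher sister exceeded the lower one by at most 1.9 times for H3f3b, 1.39 times for H3f3a and 1.28 times for H2az1 over all 6 pairs. Other variants spread more in particular pairs: Macroh2a1 differed 19.8 times in split morula pair 3, H2ax 4.33 times in split morula pair 1 and H1f0 2.25 times in split morula pair 3. The replication-dependent H1f5 and H2ac8 differed 27.1 and 14.5 times in split morula pair 2. In split blastocyst pairs 1 and 3 the ratio was 1.03 and 1.05 for H4c4 and 1.11 and 1.19 for H1f5. In pair 2 blastomere 1 had 1.33 CPM of H1f5, 6.46 CPM of H4c4, 8.64 CPM of H2ac8, 6.95 CPM of H2ac11 and 0.702 CPM of H2ac20. Its sister had 23.1, 28.6, 50, 33.3 and 7.43 CPM, which is 4.42 to 17.3 times more. H2bc4 did not share that gap, at 34.3 and 34.6 CPM. Taking pair 2 from blastomere 2 alone gave 2 called members in place of 1 both between split and control blastocysts (H2az1 being added, adjusted p = 0.041 in a range from 0.0228 to 0.252) and between split morulae and split blastocysts.

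Genes that act on histone messages and proteins were read from 4 lists. Of 21 tested genes for 3′ end processing of histone messages, 2 rose and 5 fell from 8-cell to morula, and 3 fell from morula to blastocyst, where limma-voom called 1 fall. Over all genes 14.3% rose and 10.7% fell in the first comparison and 3.12% and 7.46% in the second, which stands beside the counts of all 4 lists. Slbp, which encodes the stem-loop binding protein, stood at 281, 594, 392 and 411 CPM in 8-cell embryos, at 506, 430, 626, 531 and 624 CPM in morulae and at 142, 153 and 145 CPM in blastocysts. The 3 blastocysts were below all other control embryos, and the change from morula was -1.98 ± 0.22 (SE; edgeR adjusted p = 2.18e-06). Split blastocysts stood at 222 to 341 CPM, above all controls of that stage (log2 fold change 1.02 ± 0.23, SE; edgeR adjusted p = 0.00841), and the split effect differed between the stages by 1.30 ± 0.30 (SE; edgeR adjusted p = 0.0293). Both of these calls were lost with limma-voom, which estimates the correlation of sisters and called 0 rises in the list in either comparison, against 3 and 1 by edgeR. Cstf2t of the same list went the other way, at 2.88 to 17.6 CPM in split and 52.6 to 112 CPM in control blastocysts. Its log2 fold change was -2.54 (SE 0.42, edgeR adjusted p = 0.000761). The split effects differed by -2.62 (SE 0.54, edgeR adjusted p = 0.0124). In both comparisons edgeR and limma-voom each called 1 fall in the list. Npat, the coactivator of histone gene transcription, and Casp8ap2, a component of histone locus bodies, fell from 8-cell to morula by 1.87 and by 2.50 on the log2 scale (edgeR adjusted p = 0.000982 and 5.24e-07).

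Of 34 tested histone chaperone and exchange genes 4 rose and 14 fell from 8-cell to morula, and 3 rose and 8 fell from morula to blastocyst. The second balance moved with the scaling, to 6 rises and 7 falls with RLE size factors and to 10 and 8 with DESeq2. Nasp, a chaperone of soluble H3 and H4, fell by 1.42 from 8-cell to morula (edgeR adjusted p = 2.69e-07), and it fell by 0.85 in split against control blastocysts (edgeR adjusted p = 0.00425). Asf1b, which hands H3 and H4 to the assembly machinery, rose by 1.89 from 8-cell to morula (edgeR adjusted p = 1.96e-06) and by 1.11 in split against control blastocysts (edgeR adjusted p = 0.0116). Rbbp7, a histone-binding subunit of several complexes, fell by 2.23 from morula to blastocyst (edgeR adjusted p = 1.41e-05) and rose by 1.33 in split blastocysts (edgeR adjusted p = 0.00864). The rises of Asf1b and Rbbp7 in split blastocysts were lost with limma-voom, which called 0 rises in this list against 3 by edgeR.

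Of 13 tested genes for loading CENP-A, 1 rose and 4 fell from 8-cell to morula, while Cenpa itself rose. Mis18a, which licenses centromeres for loading, fell by 1.45 on the log2 scale (edgeR adjusted p = 9.62e-05). From morula to blastocyst Hjurp, the CENP-A chaperone, rose by 1.52 (edgeR adjusted p = 0.00864) while 3 others fell, and limma-voom called 1 rise and 0 falls. Of 20 tested S phase genes 4 rose and 3 fell from 8-cell to morula, and 1 rose and 5 fell from morula to blastocyst. Pcna, the replication clamp, rose by 1.32 and then fell by 1.14 (edgeR adjusted p = 0.000183 and 0.00397). Rrm2 and Tyms, which supply nucleotides, were higher by 1.23 and 1.13 in split than in control blastocysts (edgeR adjusted p = 0.000836 and 0.00207), and limma-voom called 1 S phase gene there against 2 by edgeR. From morula to blastocyst it called 2 falls in this list against 5. In split against control morulae no gene of the 4 lists was called by edgeR, with 3, 7, 3 and 8 genes at an unadjusted p below 0.05 in the order given here, while DESeq2 called 2, 4, 0 and 5 of them. The matching counts over all genes are not given here, so these are no result about the lists.

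The germ-line members had low levels that were uneven between embryos, and none of the 3 was counted in all 24. H1f8, the oocyte linker histone, stood at 0, 5.91, 1.98 and 6.54 CPM in 8-cell embryos, at 3.15, 0, 5.85, 1.69 and 0.457 CPM in morulae and at 1.72, 5.39 and 1.04 CPM in blastocysts. It was at 0 in all 6 split morulae, while the mean of the control morulae was 12.8 times the floor (edgeR adjusted p = 0.214). It was also at 0 in 3 of 6 split blastocysts. H2ac1, a testis H2A gene, stood at 2.02, 0.86, 3.39 and 3.5 CPM in 8-cell embryos and at 0, 0, 0.684, 0 and 0.856 CPM in morulae. It was at 0 in all 3 control blastocysts, in 5 of 6 split morulae and in 4 of 6 split blastocysts. H2bc1, its H2B neighbour, was at most 1.22 CPM in every embryo.

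The replication-dependent members not described singly were low in all groups. Of the 41, 5 were counted in all 24 embryos, and the sparsest was counted in 8. Their group means stayed below 17 CPM, and 6 were at 0 in all 6 split morulae while counted in split blastocysts. H3c4, an H3 gene, was among these, at 0, 0.195, 7.14, 0 and 0.228 CPM in control morulae, so that 1 embryo carried the level of that group (edgeR adjusted p = 0.249). H4c9 averaged 1.36 CPM in 8-cell embryos and 12.4 CPM in blastocysts. H1f1 averaged 6.49 CPM in 8-cell embryos and 0.81 CPM in morulae, and neither gene was called in any comparison.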

How the data were processed

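The authors deposited a table of raw read counts per gene (37229 genes) and a table of TPM values (15625 genes). The submitters' processing notes name HISAT2, featureCounts, cutadapt, edgeR, FastQC and MultiQC, with GRCm39 as the build; versions, gene annotation, strand setting and the handling of multi-mapped reads are not given in the sources used here. Per the labels, each sample is 1 embryo, and sister embryos carry the number of their two-cell embryo of origin.

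From the deposited counts, sisters were summed to 18 replicates in 5 groups. Genes were kept by filterByExpr, scaled by TMM and fitted with edgeR 4.0.16 in R 4.3.3 (robust quasi-likelihood test over all groups, two-sided, Benjamini-Hochberg over all genes, threshold 0.05). A pair's CPM is the mean of its 2 sisters. TPM values, as the authors deposited them, served for levels between genes and, on the log2(TPM + 1) scale, as an alternative with limma 3.58.1. Other alternatives were DESeq2 1.42.0, RLE size factors, no filter on low counts, sister embryos entered separately, limma-voom with the two-cell embryo as a random effect, fits of only the groups compared, a pseudocount of 0.1, a TPM minimum of 1, the replicate number as a block, and leaving out each replicate. Taking split blastocyst pair 2 from blastomere 2 alone was added after seeing the data. The scripts were tested on simulated data. There the main test called 1% to 10% of true 2-fold changes and 24% to 35% of true 4-fold changes, depending on the comparison. A member that was not called may therefore still have changed.

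All members may be named. Values in every embryo were given for called members and for the 3 of each class with the highest mean TPM, and up to 4 called genes per companion list and comparison could be named. The members and lists were chosen with earlier results of these data known. Stem-loops and tails were read from GENCODE transcripts and promoters from RefSeq, both on GRCm38, and no protein sequence was used here. Total counts per embryo ran from 11316911 to 38514899.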

Additional observations from a re-analysis of the deposited data

Results flagged for a closer look

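The 12 called members and both class shares were examined in the 4 8-cell embryos and in the 5 control morulae, 28 sets of values in all. In 4 of them 1 embryo lay far from the rest, where chance gives about 1 in 20. Macroh2a1 stood at 20.3 CPM in 8-cell embryo 1, with the nearest other 8-cell embryo at 6.7 CPM, and at 180 CPM in control morula 5, with the nearest other morula at 315 CPM. H1f0 stood at 106 CPM in the same morula 5, with the nearest at 79.3 CPM. H2bc4 stood at 16 CPM in control morula 3, with the nearest at 5.3 CPM. The gap to the nearest embryo was 0.787 to 0.877 of the whole range in these groups.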

How the results depend on the processing

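From 8-cell to morula the count of called members, 9, moved by less than 1.5 times under every alternative run (7 to 10 with a replicate left out), and Macroh2a1, Cenpa, H2az2, H3f3a, H4c4 and H1f0 were called in all 19. From morula to blastocyst the count of 3 became 5 with DESeq2, 1 with limma-voom, 5 with only the groups compared, 8 on log2(TPM + 1), 5 on log2(TPM + 0.1) and 8 with a TPM minimum of 1 (2 to 4 with a replicate left out), and H2az2 turned to 0.09 on all 3 TPM scales (adjusted p 0.721 to 0.748 with limma). That comparison's median over all genes moved from 0.108 to between 0.374 and 0.63 on those scales and to 0.408 with limma-voom. Between split and control morulae 0 members became 4 with DESeq2, 1 with sisters entered separately and 1 with the replicate block (0 to 1 with a replicate left out, the 1 being H2ax without pair 1). Between split and control blastocysts the count of 1 became 2 with sisters entered separately, 4 with only the groups compared, 0 on log2(TPM + 0.1), 2 with pair 2 from blastomere 2 alone and 0 whichever replicate was left out. It stayed at 1 but changed gene with no filter on low counts (H2az1 in place of H2ax) and on log2(TPM + 1) (H3c10 in place of H2ax). From split morula to split blastocyst the count of 1 became 9 with DESeq2, 13 with sisters entered separately, 13 with limma-voom, 6 on each TPM scale, 2 with pair 2 from blastomere 2 alone and 0 with the replicate block (0 to 1 with a replicate left out). For the difference between the split effects the count of 0 became 1 with only the groups compared and stayed at 0 whichever replicate was left out. The matching counts over all genes are not given for most of these alternatives, so the changed counts are no result about histones. The cause of these changes was not tested. Entering sisters separately counts them as independent, which makes its p-values too small. None of 31 pairs of same-numbered replicates deviated together with a correlation over 0.1 (-0.0333 to 0.0849). Of 18 replicates 8 correlated best with their own number. The number expected by chance was not computed, so these values cannot decide whether replicate numbers pair the groups. Low counts limit most replication-dependent members, 34 of which averaged below 10 TPM.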
